A study of Mus musculus with 8 samples.

Results

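The CXC and CX3C chemokines are small secreted or membrane-tethered proteins that draw leukocytes along a gradient. The 8 genes examined here, Cxcl1, Cxcl2, Cxcl5, Cxcl9, Cxcl10, Cxcl12, Cxcl16 and Cx3cl1, were taken by symbol from the probe annotation, and all 8 were found among the 18193 genes measured. Expression was measured on Affymetrix Mouse Genome 430 2.0 arrays in adipocytes made from the mouse fibroblast line 3T3-L1, under 3 treatments that make them insulin resistant. CI stands for chronic insulin (2 arrays), TNF for the cytokine tumour necrosis factor (3 arrays) and Dex for the synthetic glucocorticoid dexamethasone (3 arrays). Cells of all 8 arrays had also received the antioxidant MnTBAP, a manganese porphyrin, for the last 6 hours of treatment. Doses and treatment times of the models are not given in the sources used here. Cells without the antioxidant and untreated cells were not analysed here, so each difference below is only between 2 models under the antioxidant. The labels do not state whether a model's arrays came from separate cultures, and p-values therefore reflect only how far these samples varied, possibly for technical reasons.

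Chemokines of this class fall into families by receptor. Cxcl1, Cxcl2 and Cxcl5 attract neutrophils through Cxcr2, and their genes are classical targets of NF-kB, the factor that TNF activates. Cxcl9 and Cxcl10 attract T cells through Cxcr3 and are classical targets of interferons, although NF-kB also acts on Cxcl10. Cxcl12 is made constantly by stromal cells and signals through Cxcr4 and Ackr3. Cxcl16 and Cx3cl1 are made as membrane proteins and released by the proteases Adam10 and Adam17. Glucocorticoids are known to repress many NF-kB targets. For description, Cxcl1, Cxcl2, Cxcl5 and Cx3cl1 were taken as NF-kB-driven and Cxcl9 and Cxcl10 as interferon-driven, and Cxcl12 and Cxcl16 were placed in neither set.

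Promoter sequences were available in RefSeq (GRCm38.p6) for 6 of the 8 genes, from 250 bases before to 50 after the start site. Those of Cxcl1, Cxcl2, Cxcl10 and Cxcl9 are shown because these genes stand for the NF-kB-driven and interferon-driven sets compared below. They lie at chr5:90890995-90891294 on the plus strand (Cxcl1), chr5:90903649-90903948 on the plus strand (Cxcl2), chr5:92348840-92349139 on the minus strand (Cxcl10) and chr5:92328030-92328329 on the minus strand (Cxcl9). Each is written 5′ to 3′ along its gene, and capitals mark matches, on either strand, to the NF-kB consensus or to the interferon-stimulated response element (ISRE, TTTCNNTTTC).
Cxcl1: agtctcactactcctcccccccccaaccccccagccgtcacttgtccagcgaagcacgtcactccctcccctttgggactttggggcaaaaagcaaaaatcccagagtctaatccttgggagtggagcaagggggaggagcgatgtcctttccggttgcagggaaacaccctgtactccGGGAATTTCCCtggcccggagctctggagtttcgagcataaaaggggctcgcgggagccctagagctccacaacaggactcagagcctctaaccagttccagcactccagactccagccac
Cxcl2: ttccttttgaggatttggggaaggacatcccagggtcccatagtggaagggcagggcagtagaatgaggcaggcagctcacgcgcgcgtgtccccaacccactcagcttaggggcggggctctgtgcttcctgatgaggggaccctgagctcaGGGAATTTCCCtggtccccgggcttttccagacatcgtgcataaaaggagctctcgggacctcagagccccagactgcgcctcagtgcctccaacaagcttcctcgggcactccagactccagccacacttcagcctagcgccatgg
Cxcl10: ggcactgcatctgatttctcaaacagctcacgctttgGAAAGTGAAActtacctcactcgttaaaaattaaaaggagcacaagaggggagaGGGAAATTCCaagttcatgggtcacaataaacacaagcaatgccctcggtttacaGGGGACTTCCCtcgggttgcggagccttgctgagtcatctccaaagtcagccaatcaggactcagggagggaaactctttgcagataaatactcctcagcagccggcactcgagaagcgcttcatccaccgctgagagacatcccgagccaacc
Cxcl9: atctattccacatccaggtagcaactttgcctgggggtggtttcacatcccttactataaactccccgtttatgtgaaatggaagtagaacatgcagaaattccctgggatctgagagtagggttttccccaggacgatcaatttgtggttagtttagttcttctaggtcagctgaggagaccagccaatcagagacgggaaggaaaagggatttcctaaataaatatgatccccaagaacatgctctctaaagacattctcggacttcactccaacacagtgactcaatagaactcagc

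Cxcl1 and Cxcl2 carried the same run of letters matching the NF-kB consensus, from -71 to -61 and from -97 to -87 relative to the start site, where the matches on the 2 strands overlap. Cxcl10 matched the NF-kB consensus in 2 places, from -159 to -150 and from -104 to -94, and the ISRE once, from -213 to -204. No match to either was found in the windows of Cxcl9, Cx3cl1 and Cxcl12. The gamma-interferon activation site (GAS, TTCNNNGAA) was found in none of the 6. Of 32851 RefSeq promoters of the same length, 8.46% held the NF-kB consensus, 3.44% the ISRE and 8.3% the GAS. These matches describe letters in a window and are not evidence that a factor was bound.

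Values are log2 of the deposited intensity. Each gene is read from 1 probe set, the set of short probes that targets it, chosen as the one with the highest mean over the 8 arrays. The words rise and fall are kept for genes whose limma p, adjusted by Benjamini-Hochberg over all genes, was under 0.05 with a log2 difference beyond 0.5, and such genes are termed called. Each difference is followed by its standard error (SE) from the fit. Pearson's r between arrays was 0.9958 to 0.9978 within a model and 0.9856 to 0.991 between models. No measure of background was available, so for genes among the lowest on an array the size of a difference is uncertain. The median gene lay at 7.89 to 7.93 on the log2 scale.

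Against CI, the TNF model had more Cxcl5, Cxcl9, Cxcl12, Cxcl1 and Cx3cl1 and less Cxcl10. That is 6 of 8 genes called, where 8.22% of all genes were called. 5 were higher (3.00% of all genes) and 1 was lower (5.23% of all genes). With quantile normalization the genes called there split into 634 higher and 724 lower, against 545 and 951 as reported, and 6 of the 8 chemokine genes were still called. The Dex model had less Cxcl10, Cxcl5 and Cxcl9 than CI, 3 of 8 called, against 9.00% of all genes called, 5.67% of them lower and 3.33% higher. In TNF against Dex, 5 of 8 were called and all 5 were higher in TNF, namely Cxcl5, Cxcl10, Cxcl9, Cxcl12 and Cxcl16. The share of all genes called there was 7.30%, 4.14% higher and 3.16% lower. The median difference of the 8 genes was 0.53 for TNF minus CI, -0.08 for Dex minus CI and 0.67 for TNF minus Dex, beside 0.03, 0.02 and 0.01 over all genes. The arrays of the models did not overlap for 7, 3 and 7 of the 8 genes in these comparisons, as was the case for 53.0%, 48.0% and 35.9% of all genes. The comparisons share arrays, so their results are not independent of each other.

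**Figure D1:**
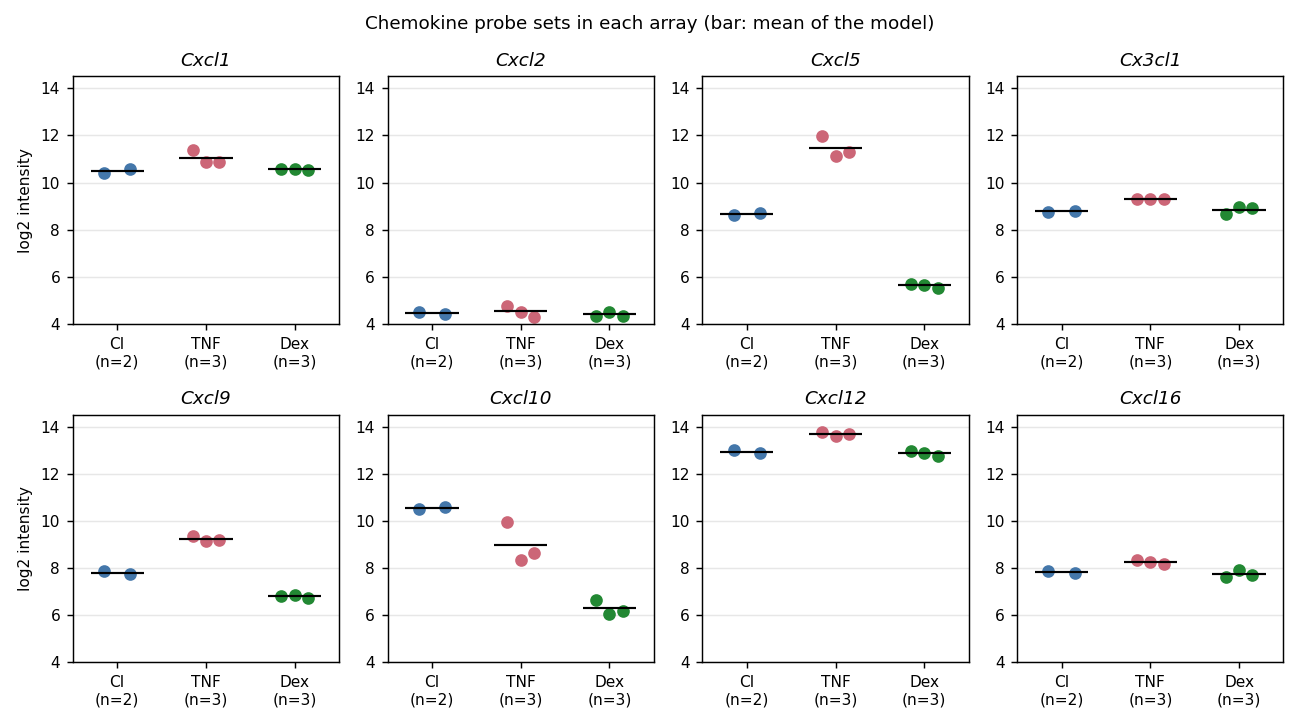
Log2 intensity (vertical axis) of the 8 chemokine genes, with 1 coloured point per array and a bar for each model mean. Cxcl5 averaged 11.47 in TNF, 8.66 in CI and 5.64 in Dex, whereas Cxcl10 was highest in CI, at 10.56, and Cxcl2 lay between 4.32 and 4.77 on every array.

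Among the neutrophil chemokines, Cxcl5 separated the 3 models most widely. Its log2 intensity was 8.62 and 8.71 in the CI arrays, 11.97, 11.14 and 11.28 in the TNF arrays, and 5.72, 5.66 and 5.55 in the Dex arrays. Every TNF array lay above every CI array, and every CI array above every Dex array. Cxcl5 rose 6.97-fold in TNF against CI (2.80 ± 0.19, limma adjusted p = 3.75e-06). It fell by 3.02 ± 0.19 in Dex against CI (limma adjusted p = 8.34e-07), and TNF exceeded Dex by 5.82 ± 0.17. In Dex its level stood at percentile 13.6 among the genes of an array, so the size of the last 2 differences is uncertain. TNF replicate 1 was the highest of the TNF arrays. The difference from CI ran from 2.55 to 2.96 with 1 array left out and stayed called each time.

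Cxcl1 depended on the probe set that was read. The probe set with the highest mean, 1441855_x_at, gave 10.42 and 10.58 in CI, 11.39, 10.87 and 10.88 in TNF and, in Dex, 10.58, 10.59 and 10.52. On this probe set TNF lay above the other models and CI and Dex could not be separated. Cxcl1 rose by 0.54 ± 0.14 in TNF against CI (limma adjusted p = 0.0150), but was no longer called with each array centred on its median (0.49) or without TNF replicate 1 (0.37), CI replicate 1 (adjusted p = 0.112) or CI replicate 2 (adjusted p = 0.0533). The Dex minus CI difference was 0.06, with a 95% interval from -0.24 to 0.36. TNF minus Dex was 0.48 ± 0.12, just under the size threshold.

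The suffix x marks a probe set with probes that also match other sequences, and a second probe set of Cxcl1, 1419209_at, carries no such mark. It gave 9.79 and 9.94 in CI, 11.77, 9.93 and 10.11 in TNF and, in Dex, 7.94, 8.02 and 7.59. Here every Dex array lay below every CI array, and only TNF replicate 1 stood well above CI. In a fit with every probe set as a feature, it fell by 2.02 ± 0.41 in Dex against CI (limma adjusted p = 0.00629) and TNF minus CI was 0.74 ± 0.41, which did not pass (adjusted p = 0.255). The remaining probe set, 1457644_s_at, whose suffix marks probes shared between transcripts, differed by -0.96 ± 0.32 in Dex against CI (adjusted p = 0.0667). Both of these probe sets were higher in TNF than in Dex, by 2.75 ± 0.37 and 1.58 ± 0.29 (adjusted p = 0.000419 and 0.00312). The 3 probe sets thus differ on whether Cxcl1 was lower in Dex, and the reason was not tested.

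Cxcl2 was measured by a single probe set at the bottom of the range. It read 4.53 and 4.43 in CI, 4.77, 4.53 and 4.32 in TNF and, in Dex, 4.34, 4.53 and 4.36, near percentile 5 of the genes of an array. The models overlapped in every comparison. TNF minus CI was 0.06 (95% interval from -0.20 to 0.32), Dex minus CI was -0.07 (from -0.33 to 0.19) and TNF minus Dex was 0.13 (from -0.10 to 0.36). At this level the arrays could not show whether the models differed.

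Cx3cl1, the membrane chemokine of the CX3C family, binds Cx3cr1 on monocytes and other leukocytes. It read 8.77 and 8.78 in CI, 9.29, 9.31 and 9.28 in TNF and, in Dex, 8.68, 8.95 and 8.92. The TNF arrays, within 0.03 of each other, lay above all others. Cx3cl1 rose by 0.52 ± 0.09 in TNF against CI (limma adjusted p = 0.00156), close to the size threshold, and stayed called with any 1 array left out. It was not called with each array centred on its median (0.47) or with an RNA quality term, the beta-actin 3′ minus 5′ difference, in the fit (0.48). That difference was 0.71 to 0.83 in TNF, 0.54 and 0.66 in CI, and 0.49 to 0.75 in Dex. TNF minus Dex was 0.45 ± 0.08, below the size threshold, and Dex minus CI was 0.07 (95% interval from -0.12 to 0.27). Another probe set, 1415803_at, gave larger differences, 0.83 ± 0.13 for TNF minus CI and 0.88 ± 0.12 for TNF minus Dex, both called, while 1421610_at and 1441884_x_at were not called in any comparison.

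**Figure D2:**
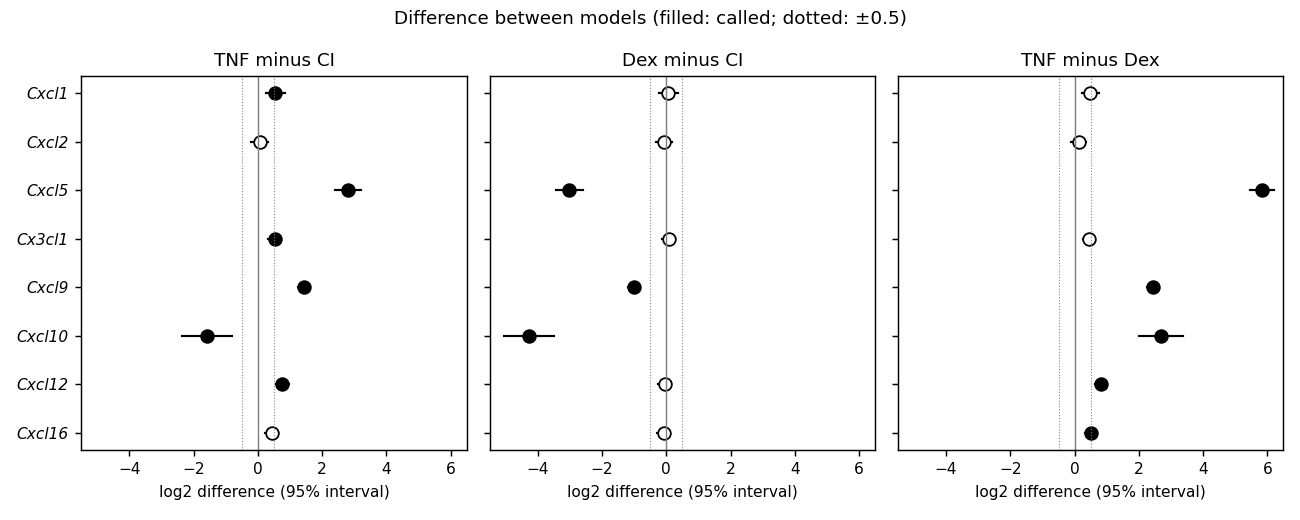
Log2 difference (horizontal axis) with its 95% interval for each of the 8 genes in the 3 comparisons, filled where called, with dotted lines at a difference of 0.5 in either direction. Cxcl10 stands left of 0 in TNF minus CI (-1.58) while Cxcl9 stands right of it (1.43), and both stand left of 0 in Dex minus CI (-4.27 and -0.998).

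The interferon-driven chemokines Cxcl9 and Cxcl10 went opposite ways between TNF and CI. Cxcl9 read 7.87 and 7.73 in CI, 9.37, 9.15 and 9.18 in TNF and, in Dex, 6.82, 6.85 and 6.74. The order was TNF, CI, Dex, with no overlap between neighbours. Cxcl9 rose 2.70-fold in TNF against CI (1.43 ± 0.09, limma adjusted p = 1.76e-06) and fell by 0.998 ± 0.09 in Dex against CI (adjusted p = 1.17e-05). TNF exceeded Dex by 2.43 ± 0.08 (adjusted p = 3.65e-09). These calls held with any 1 array left out. A second probe set, 1456907_at, at 5.18 to 5.84 on all arrays, gave differences of the same sign that were not called, 0.21, -0.20 and 0.41.

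Cxcl10 had its highest level under chronic insulin. It read 10.53 and 10.59 in CI, 9.94, 8.35 and 8.65 in TNF and, in Dex, 6.63, 6.07 and 6.17. The order was CI, TNF, Dex without overlap, but the TNF arrays were spread over 1.60 on the log2 scale, against 0.06 in CI and 0.56 in Dex. Cxcl10 fell by 1.58 ± 0.35 in TNF against CI (limma adjusted p = 0.00831). Without CI replicate 2 it was not called (-1.55, adjusted p = 0.0681), nor with a trended robust variance (adjusted p = 0.0605) or with the beta-actin term (-1.46, adjusted p = 0.0554). The difference was -2.06 without TNF replicate 1 and -1.26 without TNF replicate 2. In Dex against CI it fell by 4.27 ± 0.35 (adjusted p = 7.73e-06), the largest difference among the 8 genes in that comparison, a 19.3-fold lower intensity. TNF exceeded Dex by 2.69 ± 0.32 (adjusted p = 0.000108). In Dex the gene stood at percentile 22.6 of an array, so these last sizes are uncertain.

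As averages, the 4 NF-kB-driven genes were at 8.08 and 8.13 in CI, 9.36, 8.96 and 8.94 in TNF and, in Dex, 7.33, 7.44 and 7.34. The 2 interferon-driven genes averaged 9.20 and 9.16 in CI, 9.66, 8.75 and 8.91 in TNF and, in Dex, 6.72, 6.46 and 6.45. The NF-kB-driven average thus separated TNF from CI on every array, whereas the interferon-driven average of CI lay inside the range of TNF. The latter average joins 2 genes of opposite sign in TNF minus CI, Cxcl9 (1.43) and Cxcl10 (-1.58). It leaves out Cxcl11, which was not among the 8 and rose by 2.62 there, so it describes these 2 genes only. Dex was lowest in both averages. On the probe sets used, the NF-kB-driven average of Dex rested on Cxcl5, since Cxcl1, Cxcl2 and Cx3cl1 were not called against CI. Cxcl1 was called lower in Dex on another probe set, 1419209_at (-2.02 ± 0.41), which did not enter the average. Cxcl5 also had the largest difference of the 4 in TNF minus CI, 2.80, beside 0.54 for Cxcl1, 0.52 for Cx3cl1 and 0.06 for Cxcl2. No test was made on these averages.

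**Figure D3:**
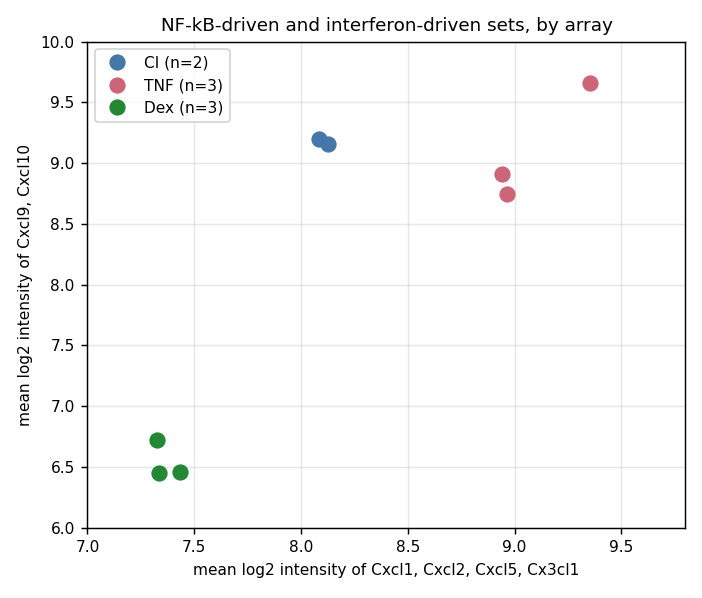
Mean log2 intensity of Cxcl9 and Cxcl10 (vertical axis) against that of Cxcl1, Cxcl2, Cxcl5 and Cx3cl1 (horizontal axis), 1 point per array, coloured by model. The CI arrays lie left of the TNF arrays (8.08 and 8.13 against 8.94 to 9.36) at a similar height, and the Dex arrays lie lowest on both axes.

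Cxcl12, the stromal chemokine, rose in TNF. It read 12.99 and 12.87 in CI, 13.78, 13.62 and 13.69 in TNF and, in Dex, 12.97, 12.90 and 12.76. TNF lay above the other models, which overlapped. Cxcl12 rose by 0.77 ± 0.09 in TNF against CI (limma adjusted p = 0.00013) and exceeded Dex by 0.82 ± 0.08 (adjusted p = 2.1e-05), and neither call was lost with 1 array left out. Dex minus CI was -0.05 (95% interval from -0.25 to 0.14). This probe set stood at percentile 98.7 to 99.7 of the genes of an array, near the top of the range. A probe set of lower intensity, 1417574_at, read 9.96 and 9.85 in CI, 12.09, 12.03 and 12.27 in TNF and, in Dex, 9.30, 9.30 and 9.29. It gave a rise of 2.22 ± 0.09 in TNF against CI and a fall of 0.61 ± 0.09 in Dex against CI (limma adjusted p = 1.34e-07 and 0.000661). The third, 1439084_at, at 6.19 to 6.67, was not called in any comparison.

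Cxcl16, a membrane scavenger receptor that also serves as the ligand of Cxcr6, changed little on its main probe set. It read 7.86 and 7.80 in CI, 8.36, 8.25 and 8.19 in TNF and, in Dex, 7.62, 7.90 and 7.72. TNF lay above both other models, which overlapped. TNF minus CI was 0.43 ± 0.09, below the size threshold (limma adjusted p = 0.00634), and TNF exceeded Dex by 0.52 ± 0.08 (adjusted p = 0.000985). The latter was no longer called without TNF replicate 1 (0.47) or Dex replicate 1 (0.45), nor with each array centred on its median (0.49). The other probe set, 1449195_s_at, read 6.09 and 6.02 in CI, 7.47, 7.24 and 7.49 in TNF and, in Dex, 6.10, 6.01 and 5.94. Its differences were larger, 1.34 ± 0.09 for TNF minus CI and 1.38 ± 0.08 for TNF minus Dex, both called. Dex minus CI was -0.08 (95% interval from -0.28 to 0.12) on the main probe set and -0.04 on the other.

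**Figure D4:**
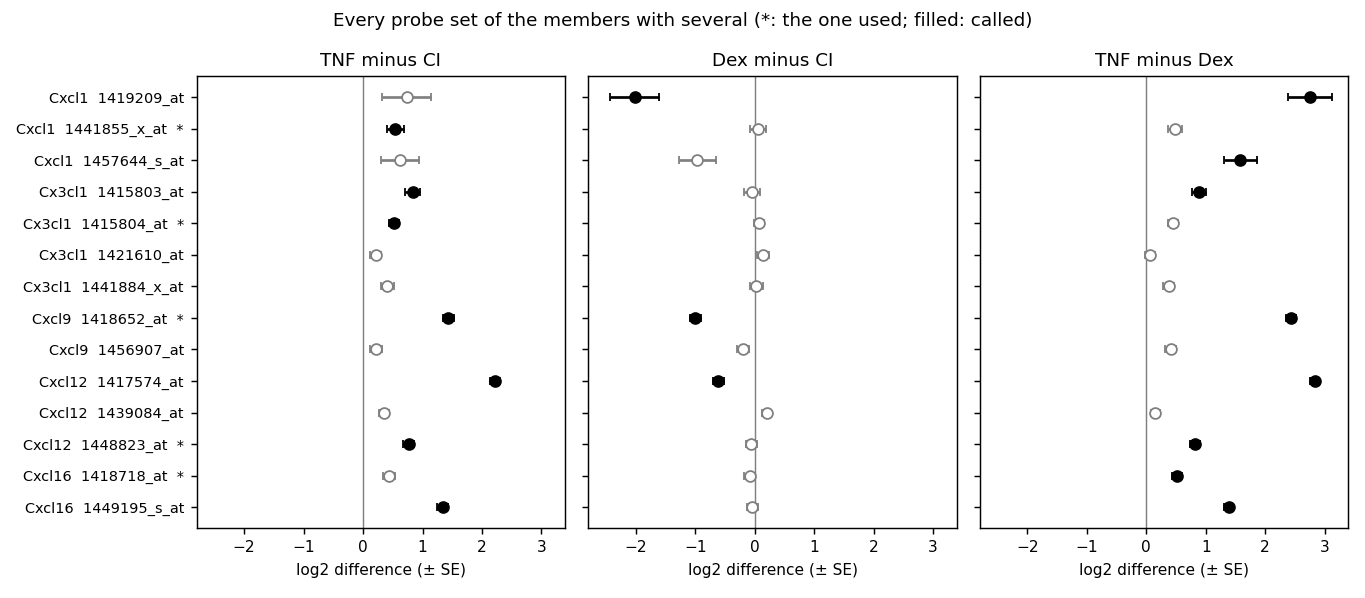
Log2 difference with its SE (horizontal axis) of each probe set of the 5 genes that have several, in the 3 comparisons, with an asterisk at the probe set used and filled symbols where called in a fit of every probe set. The probe sets of Cxcl1 spread from -2.02 to 0.06 in Dex minus CI, and those of Cxcl12 from 0.36 to 2.22 in TNF minus CI.

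TNF replicate 1 was the highest of the 3 TNF arrays for 7 of the 8 genes, all but Cx3cl1, and for 34.5% of all genes. For each member called in any comparison, which leaves out Cxcl2, the 3 genes most like it across the 8 arrays are given as a description, since arrays of a model are alike. Cxcl5 was most like Cyp4v3, Mmp3 and Plac8 (Pearson's r = 0.995 for each). Cxcl9 was most like the matrix protease Mmp3 (0.999), the haem-binding protein Hpx (0.995) and lysozyme, Lyz2 (0.994). Cxcl10 was most like the interferon-inducible genes Irgm1 (0.996) and Rtp4 (0.994), with Pcgf5 (0.995) between them. Cxcl12 was most like Mxra8 (0.995), the matrix gene Fbln2 (0.993) and Pknox2 (0.992). The nearest genes of Cxcl1 were Trib2 (0.992), Susd6 (0.984) and Ddx4 (0.982), those of Cx3cl1 were Dbn1 (0.986), Plxdc2 (0.983) and the collagen Col16a1 (0.982), and those of Cxcl16 were Cntnap4 (0.988), Sh3gl3 (0.98) and Rorb (0.979). Among the members themselves, Cxcl5 followed Cxcl9 (r = 0.993) more closely than Cxcl9 followed Cxcl10 (r = 0.6).

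Of 8 other CXC ligands, 2 were higher in TNF than in CI, 1 was higher in Dex than in CI and 2 were higher in TNF than in Dex, with none lower. The shares of all genes called in these comparisons were 8.22%, 9.00% and 7.30%, so a count of 1 is near the share of all genes. Cxcl11, the remaining Cxcr3 ligand, read 6.35 and 6.31 in CI, 9.12, 8.76 and 8.98 in TNF and, in Dex, 5.80, 5.94 and 6.24. It rose by 2.62 ± 0.13 in TNF against CI (limma adjusted p = 3.88e-07) and exceeded Dex by 2.96 ± 0.12. In Dex its level stood at percentile 18.1 of an array, so the size of the latter difference is uncertain. The Cxcr3 ligands therefore ranked the models differently: TNF was highest for Cxcl9 and Cxcl11 and CI for Cxcl10. Ppbp, a platelet chemokine, was called in TNF against CI at 0.50 ± 0.12, but not without either CI array, TNF replicate 1 or TNF replicate 2. The call was also lost with quantile normalization (0.45), median centring (0.45), a pseudocount of 16 (0.33) and array weights (0.40). Ppbp was low, at percentile 6.4 in CI, 9.5 in TNF and 5.3 in Dex. Its call in TNF against Dex (0.69 ± 0.11) was lost with the pseudocount (0.45). Cxcl13, which attracts B cells, rose in Dex against CI by 0.64 ± 0.07.

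Most receptors differed little between the models. Of 12 receptor genes listed, 11 were measured, and limma called none in TNF against CI, where Ackr4 (0.45 ± 0.14, adjusted p = 0.0362) and Cxcr3 (0.25 ± 0.07, adjusted p = 0.0306) did not reach the size threshold. With array weights, or without TNF replicate 2, 1 receptor was called higher. Cxcr2 lay at 6.34 in CI, 6.42 in TNF and 6.38 in Dex on average, Cxcr4 at 4.91, 4.76 and 4.93, Cxcr6 at 5.84, 5.89 and 5.91, and Cx3cr1 at 5.98, 6.04 and 6.07. These 4 were below the median gene, and none was called in any comparison. The scavenging receptors Ackr1 (8.39, 8.46 and 8.34) and Ackr4 (8.03, 8.47 and 8.15) averaged above it and were not called either. In Dex minus CI and in TNF minus Dex 1 of 11 receptors was called, where 9.00% and 7.30% of all genes were. This was Ackr3, a scavenging receptor for Cxcl12. It read 6.96 and 7.28 in CI, 6.98, 6.81 and 6.59 in TNF and, in Dex, 5.85, 6.00 and 6.36. Ackr3 fell by 1.05 ± 0.15 in Dex against CI (limma adjusted p = 0.000521) and was higher in TNF than in Dex by 0.73 ± 0.14, a call lost with the beta-actin term (0.62, adjusted p = 0.0691).

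A list of 11 genes around the shedding, cleavage and binding of chemokines also held the protease inhibitors Timp1 and Timp3. It had 5 members higher in TNF than in CI and none lower, with a median of 0.47 beside 0.03 over all genes. With quantile normalization the number was 8. Among all genes, 8.22% were called in TNF minus CI, 9.00% in Dex minus CI and 7.30% in TNF minus Dex. Timp1, an inhibitor of metalloproteinases, rose by 1.43 ± 0.09, the gelatinases Mmp9 and Mmp2 by 1.13 ± 0.10 and 0.88 ± 0.08, and the membrane protease Mmp14 by 0.88 ± 0.08. The sheddase Adam10 rose by 0.53 ± 0.10 and stood near the size limit. This call was lost without TNF replicate 3 (0.45) or CI replicate 1 (0.50), and with each array centred on its median (0.48). It was also lost with the median of the gene's probe sets (0.31) and with the beta-actin term (0.41). Adam17, the partner of Adam10, differed by 0.30 ± 0.07, below the size threshold. In Dex against CI, Mmp2 rose by 0.78 ± 0.08, while Timp3 and Timp1 fell by 0.93 ± 0.10 and 0.63 ± 0.09. In TNF against Dex 4 were higher and none lower, with Timp1 at 2.06 ± 0.08 and Timp3 at 1.38 ± 0.09.

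Regulators of NF-kB and of chemokine mRNA, listed together with TNF receptors, Cebpb and Cebpd, were measured for 20 of 22 listed genes. The shares of all genes called were 8.22% in TNF minus CI, 9.00% in Dex minus CI and 7.30% in TNF minus Dex. In TNF against CI 6 rose and none fell, with a median of 0.21, and the number was 2 without CI replicate 1. The inhibitor Nfkbie rose by 2.28 ± 0.39. Its arrays read 10.35, 8.52 and 9.13 in TNF, where replicate 1 was again highest, against 6.76 and 7.35 in CI. Nfkbiz rose by 0.88 ± 0.13 and the subunit Relb by 0.82 ± 0.18, the latter not without CI replicate 1 (adjusted p = 0.0595). With the median of a gene's probe sets Nfkbiz was not called (0.23, adjusted p = 0.0921), and 3 genes of the list were. Nfkbia, the classical inhibitor, differed by 0.19 ± 0.15 in TNF against CI. In Dex against CI Nfkbia rose by 0.58 ± 0.15. Leaving out CI replicate 1 removed this call, with a difference of 0.47. In Dex against CI 5 rose and 1 fell. Cebpd, a factor that glucocorticoids induce, rose by 2.40 ± 0.17. Zfp36, whose product promotes decay of inflammatory mRNAs, rose by 1.26 ± 0.12, from 8.94 and 9.04 in CI to 10.33, 10.45 and 9.97 in Dex. Zfp36 was also higher in Dex than in TNF, by 1.55 ± 0.11. The TNF receptor gene Tnfrsf1b was higher than in CI in both models, by 0.56 ± 0.10 in TNF, not without CI replicate 1 (0.46), and by 0.71 ± 0.10 in Dex. With the median of its probe sets Tnfrsf1b was called in neither (0.32 in TNF and 0.49 in Dex).

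Genes of interferon signalling were measured for 19 of 20 listed. In TNF against CI 2 rose and 3 fell, in Dex against CI none rose and 4 fell, and in TNF against Dex 5 were higher and 1 lower. The medians were -0.08, -0.12 and 0.15, and 8.22%, 9.00% and 7.30% of all genes were called in these comparisons. Usp18, an interferon-induced brake on the receptor, was ordered as Cxcl10 was. It read 12.37 and 12.35 in CI, 11.07, 9.71 and 9.99 in TNF and, in Dex, 8.81, 8.54 and 8.34. Irf9, a subunit of the complex that binds the ISRE, fell by 1.22 ± 0.19 in TNF and by 1.93 ± 0.19 in Dex against CI. Its partner Stat2 fell by 1.55 ± 0.26 in Dex. In TNF Stat2 differed by -0.98 ± 0.26, a call lost without CI replicate 1 (adjusted p = 0.0962) and without 3 other arrays, CI replicate 2, TNF replicate 2 and TNF replicate 3. Irf7 fell by 1.86 ± 0.15 in Dex against CI and exceeded Dex in TNF by 1.60 ± 0.13. Irf1, which is induced by interferon gamma and TNF, differed by -0.06 ± 0.15 in TNF and -0.25 ± 0.15 in Dex against CI. The kinase Jak2 and the receptor chain Ifnar2 rose in TNF against CI, by 0.90 ± 0.14 and 0.55 ± 0.08, the latter not with each array centred on its median (0.497).

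**Figure D5:**
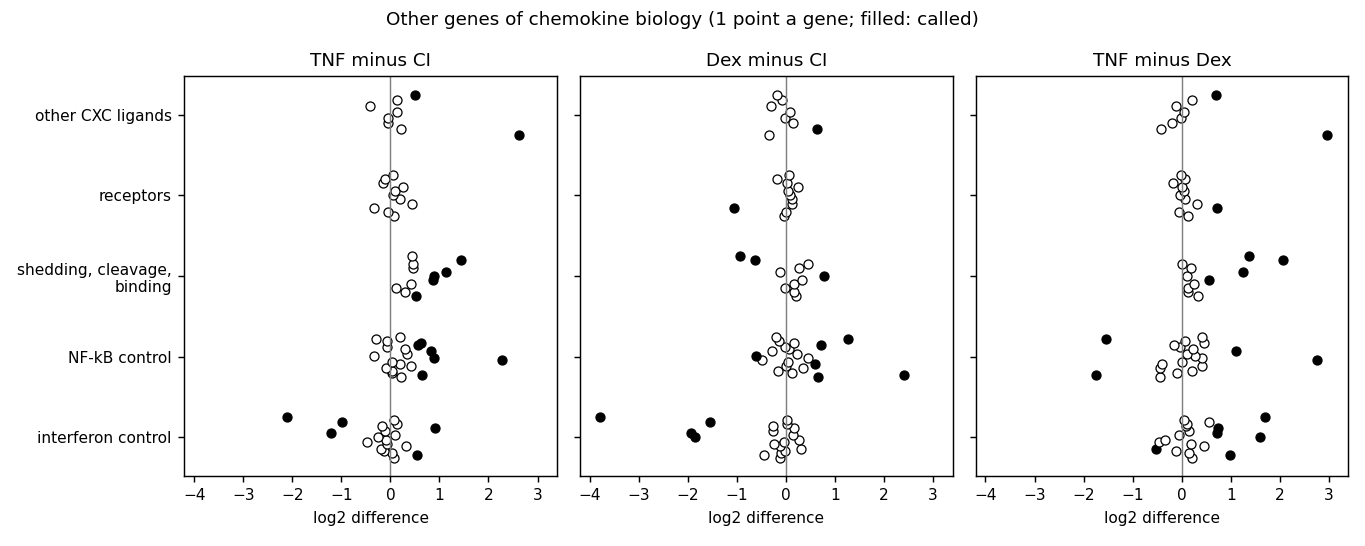
Log2 difference (horizontal axis) of other genes of chemokine biology in the 3 comparisons, 1 point per gene, grouped by list on the vertical axis and filled where called. In TNF minus CI 6 genes of the NF-kB control list were called, Cebpd among them, and all were higher. Interferon genes were called there on both sides of 0 (2 higher and 3 lower).

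Adipocytes, undifferentiated fibroblasts and stray leukocytes or endothelial cells could each contribute chemokine RNA, and in bulk samples fewer cells of a type and less RNA per cell cannot be told apart. The adipocyte gene Adipoq lay at 14.31 to 14.39 on every array, as the label of the cells implies, and the preadipocyte gene Dlk1 at 12.00 to 13.10. The summed intensity of 7 of 8 fibroblast markers, on the log2 scale, was 14.34 and 14.40 in CI, 14.53 to 14.82 in TNF and 13.63 to 13.79 in Dex. Of these 7, 2 were higher in TNF than in CI, Pdgfrb (0.93 ± 0.14) and Acta2 (1.06 ± 0.15, but 0.35 and not called on its probe set without a shared-probe suffix). The only negative differences in TNF minus CI were those of Thy1 (-0.29 ± 0.07) and Col1a1 (-0.15 ± 0.11), neither called. Of the 7, 2 were lower in Dex than in CI, Col1a1 (-1.14 ± 0.11) and Dlk1 (-0.70 ± 0.10), and 5 were higher in TNF than in Dex. On probe sets without that suffix Dlk1 was not called against CI (-0.13), and in TNF minus Dex neither Dlk1, whose sign turned (-0.16), nor Acta2 (0.26) was called. The call of Pdgfra in TNF minus Dex (0.72 ± 0.22) was lost without any 1 array other than TNF replicate 2, with values from 0.48 without TNF replicate 1 to 0.83 without Dex replicate 2. The summed adipocyte markers, 7 of 8 measured, were at 16.68 in each CI array, 16.39 to 16.44 in TNF and 16.65 to 16.70 in Dex. Of these 7, 3 were lower in TNF than in CI, Retn (-0.95 ± 0.09), Cidec (-0.85 ± 0.08) and Slc2a4 (-0.63 ± 0.08). Adipoq, Fabp4 and Lpl, which make up much of the sum, were not called. Each averaged at percentile 99.9 or 100 of an array in every model. That is near the top of the range, so the size of their differences is uncertain. Slc2a4 was also lower in Dex than in CI (-0.65 ± 0.08), and Retn and Cidec were lower in TNF than in Dex. The leukocyte markers, 9 of 10 measured, summed to 11.53 and 11.57 in CI, 11.86 to 11.96 in TNF and 11.24 to 11.31 in Dex. Of these, Lyz2 was higher in TNF than in CI (0.55 ± 0.07) and S100a8 lower in Dex than in CI (-1.50 ± 0.28), and the same genes were the 2 called between TNF and Dex. The pan-leukocyte gene Ptprc lay at 4.46 to 4.77 on every array, near percentile 6. None of 6 endothelial markers was called by limma. Beside these marker counts, 8.22% of all genes were called in TNF minus CI, 9.00% in Dex minus CI and 7.30% in TNF minus Dex. A count of 1 in a marker list is near these shares. The fibroblast sum includes Acta2 and Dlk1, whose differences depended on the probe set read, as given above. On the probe sets used, the sums of fibroblast and leukocyte markers were ordered as Cxcl5 and Cxcl9 were. The leukocyte list as a whole was not: in Dex minus CI 5 of its 9 genes had positive differences, among them Cd68 (0.31 ± 0.10), and its median was 0.03. The part of these cells in the chemokine differences was not tested.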

How the data were processed

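Gene expression of 8 samples was measured on Affymetrix Mouse Genome 430 2.0 arrays. The authors deposited 1 linear intensity per probe set. Per the study's methods they ran RMA in affyPLM, and any further scaling is not given in the sources used here. Log2 was taken with no pseudocount. The 64 control probe sets were left out, and a gene was represented by its single-symbol probe set with the highest mean log2 over the 8 arrays, named from GEO's platform annotation. Of 45101 probe sets 34958 had 1 symbol, 932 several and 9211 none.

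The 3 models were fitted together with limma (version 3.58.1, R 4.3.3; lmFit and eBayes, two-sided, Benjamini-Hochberg over 18193 genes). Calls needed an adjusted p below 0.05 and a log2 difference beyond 0.5 in either direction. Members, lists and tests were chosen with earlier results of these data known. The genes named were the 8 members, up to 6 called members of each list with the largest difference, and a few receptors, proteases and regulators whatever their values. Marker genes were named after their values were seen. Alternatives were other scalings, a pseudocount of 16, a filter on low genes, other probe set rules, a replicate block, a beta-actin 3′ minus 5′ term, a fit of 2 groups, other variance settings, array weights, other thresholds and leaving out each array. The fit was tested on simulated data. Arrays carry no read depth, so precision depends on how many there are. The plan had assumed deposited log2 values.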

Additional observations from a re-analysis of the deposited data

How the results depend on the processing

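Of 525 differences of the 8 genes under the alternatives, 485 kept their sign and their side of the threshold. Another 22 were no longer called, 11 became called and 7 changed sign. These counts include the settings with adjusted p alone and with a minimum difference of 1, which moved only the threshold and left the differences unchanged. The sign changes were those of Cxcl1 in Dex minus CI with the median of its probe sets (-1.38), with the probe set without a shared-probe suffix (-2.02, an alternative chosen after seeing the data) and without CI replicate 1 (-0.0206, from there to 0.1387 over the arrays left out), of Cxcl12 in Dex minus CI without CI replicate 1 (0.0075) and without Dex replicate 3 (0.0033, and from -0.1155 to 0.0075 over all), and of Cxcl2 in TNF minus CI with array weights (-0.0216) and without TNF replicate 1 (-0.0552, up to 0.169 over all). Apart from the first 2, all were values that passed no threshold. The cause was not tested.

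With 1 array left out, 4 to 6 of the 8 genes were called in TNF minus CI, 3 in each case in Dex minus CI and 4 to 6 in TNF minus Dex. With the median of the probe sets of a gene, 5 genes were lower in Dex than in CI, where the single probe sets gave 3. A minimum log2 difference of 1 left 3 genes in TNF minus CI and 3 in TNF minus Dex by construction. Over all features, the calls, in the order TNF against CI, Dex against CI and TNF against Dex, were 1496, 1637 and 1328 of 18193 genes, 2992, 3305 and 2583 with every probe set as a feature, 4181, 3925 and 3800 by adjusted p alone, and 258, 423 and 342 with a minimum difference of 1. Replicate numbers recur between models. The deviations of same-numbered arrays from their model means correlated from -0.095 to 0.334, and those of differently numbered arrays from -0.384 to 0.284. These few values cannot decide whether the numbers are pairs, since the deviations of the 2 CI arrays are mirror images. The numbers were not taken as pairs in the main fit. With a replicate block 6, 3 and 5 of the 8 genes were called, as without it, and Adam10 was not called in TNF minus CI (0.46).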
